A study of Drosophila melanogaster with 12 samples.

Results

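The comparison described here asked which head transcripts of *Drosophila melanogaster* changed differently between the early and the late hours of the day when the temperature cycled than when it was held constant. The quantity measured was the interaction: the mean of hours 14, 18 and 22 minus the mean of hours 2, 6 and 10 on the CA (cold/ambient) day, minus the same difference on the AA (ambient/ambient) day. It used all 12 arrays of the series and 11137 of 13966 probe sets other than controls (79.7%), namely those with more than 6 of 12 values above 2.93 (log2). The flies were adults. All carried the *yellow* and *white* marker mutations (*y w*) and no other stated alleles, and all were kept in constant darkness, first at 25 °C and then in a thermocycle of 12 h at 18 °C and 12 h at 25 °C for more than 4 days. On the CA day the hours 2, 6 and 10 were at 18 °C (CA cryophase) and the hours 14, 18 and 22 at 25 °C (CA thermophase). On the AA day every hour was at 25 °C, and the same hours are called the AA subjective cryophase and the AA subjective thermophase. Each sample was the RNA of a pool of about 100 to 200 heads on 1 array, so the 4 groups held 3 arrays each. The 3 arrays of a group are 3 different hours, the sources do not say whether they came from separate cultures, and the p-values measure only the spread between them.

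Temperature acts on fly transcripts in more than 1 way. It sets the phase of the circadian clock, whose products *per*, *tim*, *Clk* and *cyc* form a feedback loop that goes on at constant temperature, and it also changes the level of some transcripts directly, among which chaperone genes are the textbook case. A transcript that follows the thermometer alone differs between the phases on the CA day and is level on the AA day, so its interaction equals its CA phase change. A transcript that follows only the clock, with a rhythm of the same phase and size on both days, changes alike on both and has an interaction near 0. A rhythm that peaks midway between the early and the late hours adds little to either phase change, so the interaction says little of it. A positive interaction means a larger late-minus-early change in the thermocycle, and it can come from a gain on the CA day, from a loss on the AA day, or from both.

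The arrays carried the markers of the head. The photoreceptor arrestins *Arr2* and *Arr1* and the light-gated channel gene *trp* stood at the 99.9, 99.6 and 98.2 percentiles of all probe sets by mean level, and the neuronal genes *nSyb* and *elav* at 86.3 and 68.3. The yolk protein genes *Yp1*, *Yp2* and *Yp3*, which the female fat body transcribes, had mean levels between 13.2 and 13.7 (log2). Gut transcripts were present too, the trypsin gene *betaTry* ranging from 6.40 to 9.27 over the arrays. The body score, the mean of the gut and the male reproductive marker scores, was higher in the late hours on both days (-0.17 and 0.25 on the CA day, -0.28 and 0.205 on the AA day), so its interaction was small (-0.07). The ovary genes *osk* and *vas* did not pass the filter, nor did the antennal *lush*. In pooled heads, fewer cells of a type and less RNA per cell cannot be told apart.

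A control signal moved with the comparison itself. The control probe sets at the 3′ and 5′ ends of the *eIF-4a* transcript, which encodes a translation initiation factor, differed by 2.64 (log2) in the CA cryophase and 2.21 in the CA thermophase, but by 1.63 in the AA subjective cryophase and 2.31 in the AA subjective thermophase. Its own interaction was thus -1.11. In 5 arrays (CA14, CA18, AA2, AA10 and AA18) the difference was between 0.96 and 1.85, and in the other 7 between 2.39 and 3.23, with none between. The CA cryophase held no array with the small difference and the AA subjective cryophase held AA2 and AA10. The same difference for *GAPDH* ran from 2.09 to 2.78 with an interaction of -0.26, and for actin from 1.17 to 1.94 with an interaction of 0.05. The scores of the muscle, phototransduction and synapse lists had interactions of 0.23, 0.18 and 0.17, with AA14 the lowest array for each.

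No probe set passed the test of the interaction after adjustment (0 of 11137, 0%, at a limma adjusted p of 0.05, and 0 at 0.2; smallest adjusted p 0.901). At an unadjusted limma p under 0.05 there were 355 probe sets, 207 positive (1.86%) and 148 negative (1.33%), where 557 are expected by chance. Of these 43 had a p under 0.01, 26 positive and 17 negative, and 5 a p under 0.001, 2 positive and 3 negative. The median standard error of an interaction was 0.15 (log2), and 89.2% of the interactions lay within 0.3 of 0. Interactions over 0.5 in size were measured for 304 probe sets and over 1 for 19. The values below therefore describe these 12 arrays, and this test called no single gene among them. Its standard errors include any change between the 3 hours of a group. A fit with the hour of day as a block, which takes out such change where both days share it, is given in the last section. The 24 genes described first had the smallest p in each direction among the probe sets with a single gene symbol. For all but *Stip1* (adjusted p 0.901) the limma adjusted p was 0.997. By p, *Stip1* ranked 2 over all probe sets, so the smallest p of all belonged to a probe set without a single symbol, which was not named.

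A second, test-free description compared the CA and AA arrays of the same hour. In 704 probe sets (6.32%) the 3 differences at the late hours all lay above the 3 at the early hours, and in 814 (7.31%) all lay below. Of the 24 genes with the smallest p, all 12 positive ones were of the first kind and 11 of the 12 negative ones of the second, the exception being *MFS14*, which follows from how they were chosen.

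The 12 genes with the smallest p and a positive interaction began with a pair of chaperone genes that were low only in the cold. *Stip1* encodes the adaptor that hands proteins from Hsp70 to Hsp90. Its log2 values at hours 2, 6, 10, 14, 18 and 22 were 5.37, 4.90, 5.30, 6.17, 6.17 and 6.28 on the CA day and 5.58, 5.85, 5.94, 5.81, 5.96 and 5.74 on the AA day. The 3 arrays at 18 °C were the lowest 3 of the 12, and the AA day was flat, with a late-minus-early change of 0.04 (SE 0.13). The interaction was 0.98 (SE 0.18), or 1.97-fold. At the same hour the CA value was below the AA value by 0.60 on average early in the day and above it by 0.37 late, when both days were at 25 °C.

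*DnaJ-1*, an Hsp40 that stimulates the ATPase of Hsp70, had the values 6.16, 6.14, 6.43, 7.08, 7.17 and 6.88 on the CA day and 6.74, 6.54, 7.01, 6.70, 6.92 and 6.68 on the AA day. Again the 3 arrays at 18 °C were the lowest of the 12. The interaction of 0.80 (SE 0.18) was all CA phase change (0.80), with an AA phase change of 0.00 (SE 0.13). CA arrays lay 0.52 below the AA arrays early and 0.28 above them late.

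*CG9297*, a gene known by its number only, had the opposite make-up. Its CA values were 7.43, 7.79, 7.67, 7.95, 7.67 and 7.71 and its AA values 7.999, 7.99, 7.93, 7.26, 7.62 and 7.19, so the late hours were lower on the AA day (-0.62, SE 0.13) and hardly different on the CA day (0.15). The interaction was 0.76 (SE 0.18). A second probe set of this gene gave 1.08 (SE 0.40), with an AA phase change of -0.87 and a CA phase change of 0.21, and 0.49 (SE 0.21) with the *eIF-4a* difference as a covariate.

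The calcium pump gene *SERCA*, which refills the sarcoplasmic and endoplasmic reticulum, was of the same kind: CA values 8.41, 8.58, 8.66, 8.69, 8.81 and 8.67, AA values 8.72, 8.51, 8.75, 8.31, 8.38 and 8.30. The 3 late AA arrays were its lowest of all. The interaction was 0.51 (SE 0.13), with phase changes of 0.17 on the CA day and -0.33 on the AA day. *chk*, which encodes a monocarboxylate transporter, had the CA values 4.11, 4.49, 4.52, 4.38, 4.58 and 4.40 and the AA values 4.67, 4.46, 4.66, 3.87, 4.26 and 3.87. Its late AA values at hours 14 and 22 were the lowest of the 12, and its interaction was 0.68 (SE 0.19).

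*CG32486* differed on both sides, with the CA values 6.16, 6.46, 6.33, 6.89, 6.83 and 6.44 and the AA values 6.81, 6.90, 7.05, 6.44, 6.88 and 6.38. CA arrays were lower by 0.61 early and higher by 0.15 late, for an interaction of 0.76 (SE 0.21), and a second probe set gave 0.79 (SE 0.35), or 0.29 (SE 0.20) with that covariate. The cullin gene *Cul5*, a scaffold of ubiquitin ligases, had a smaller but even difference: CA values 3.30, 3.44, 3.33, 3.63, 3.66 and 3.54 against AA values 3.67, 3.64, 3.65, 3.47, 3.44 and 3.59 (interaction 0.40, SE 0.11). At each early hour the CA array lay below its AA partner, by 0.30 on average.

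**Figure D1:**
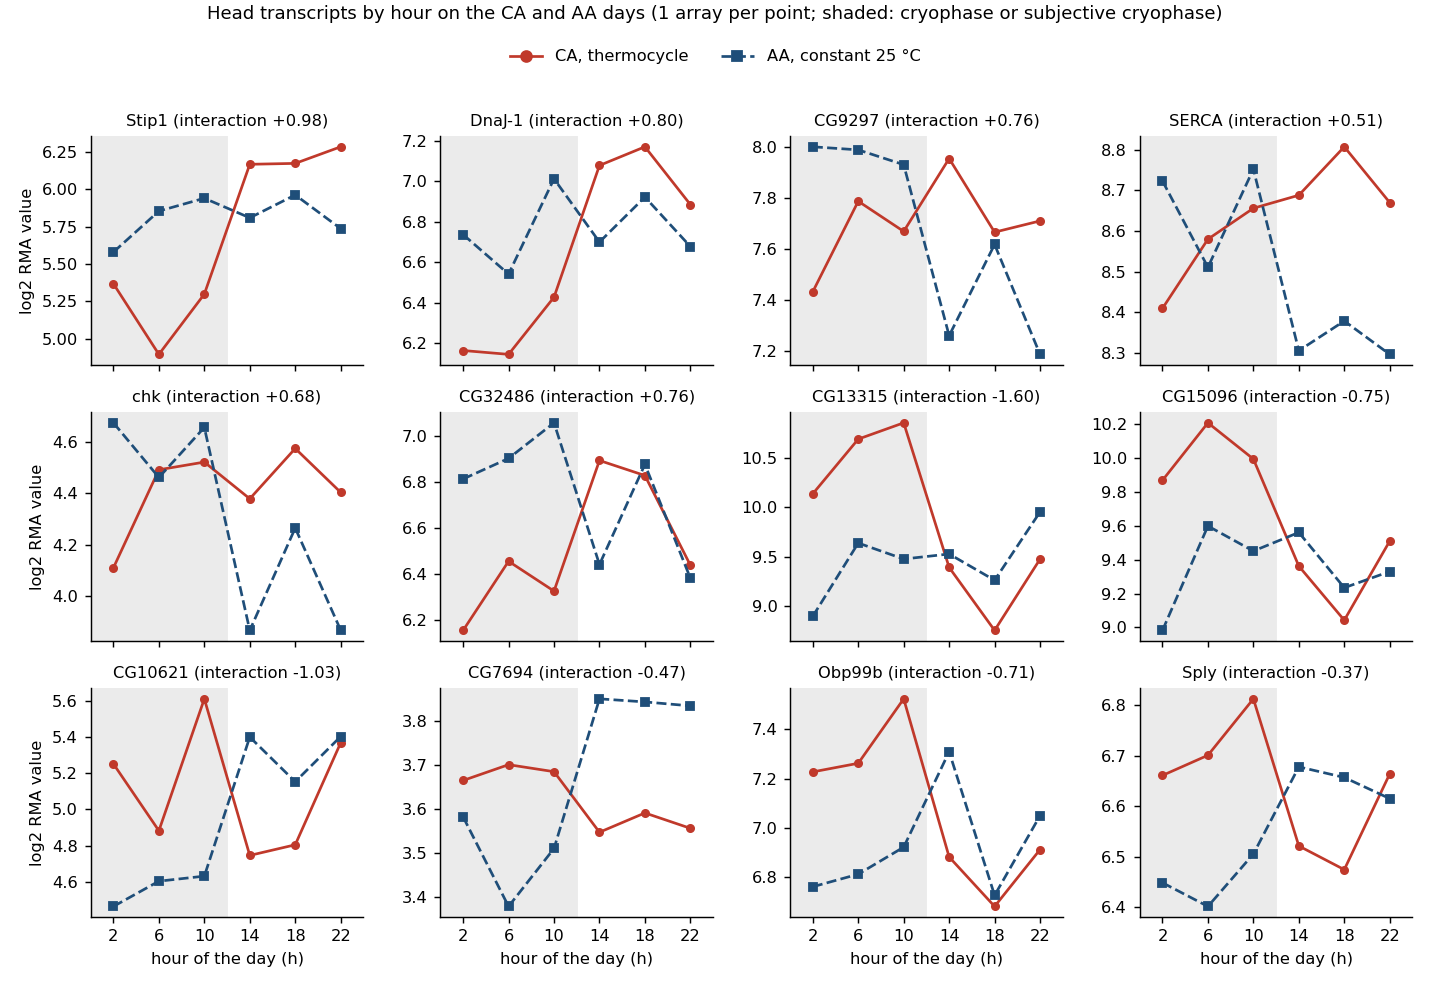
Log2 RMA values by hour of the day for 12 genes, 1 array per point, with the CA day as circles and solid lines and the AA day as squares and dashed lines; the shaded hours were at 18 °C on the CA day and at 25 °C on the AA day. *Stip1* and *DnaJ-1* are low in the 3 cold arrays, *CG9297*, *SERCA* and *chk* are low late on the AA day, and *CG13315* and *CG15096* are high in the 3 cold arrays.

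The other 5 positive genes had interactions between 0.44 and 0.57. *hry* (*hairy*), a transcriptional repressor of the bHLH family, had the CA values 7.36, 7.61, 7.64, 7.88, 7.70 and 7.93 and the AA values 7.69, 7.87, 7.73, 7.31, 7.65 and 7.61. Its phase change was 0.30 on the CA day and -0.24 on the AA day (interaction 0.54, SE 0.16), and CA2 and AA14 were its lowest arrays. *Ada3*, an adaptor subunit of histone acetyltransferase complexes, was near the low end of the filter, with the 12 values between 2.86 and 3.49 and phase changes of 0.27 and -0.27 (interaction 0.55, SE 0.16). *Septin1*, a filament-forming GTPase, had its 3 cold arrays lowest (4.68, 4.68 and 4.75, against 4.93 or more elsewhere; interaction 0.49, SE 0.15), and the 5 arrays with the small *eIF-4a* difference were its highest 5. The numbered genes *CG13532* and *CG17068* had interactions of 0.57 (SE 0.17) and 0.44 (SE 0.12).

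Among the 12 genes with a negative interaction, the largest in size was *CG13315*, whose product has no assigned function here. Its CA values were 10.14, 10.69, 10.86, 9.39, 8.75 and 9.48 and its AA values 8.90, 9.64, 9.48, 9.53, 9.26 and 9.95. The 3 arrays at 18 °C were the highest of the 12. It stood 1.22 higher on the CA than on the AA day early and 0.37 lower late, and the interaction was -1.60 (SE 0.36), a 3.03-fold difference of the phase changes. *CG15096* had a like profile. Its CA values were 9.87, 10.21, 9.99, 9.36, 9.04 and 9.51 and its AA values 8.98, 9.60, 9.45, 9.56, 9.23 and 9.33. Its AA phase change was 0.03 (SE 0.17), so the interaction of -0.75 (SE 0.23) was almost all from the CA day.

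Other negative genes differed mainly on the AA day. *CG7694* had the CA values 3.67, 3.70, 3.69, 3.55, 3.59 and 3.56 and the AA values 3.58, 3.38, 3.51, 3.85, 3.84 and 3.83, so its 3 late AA arrays were the highest of the 12. Its interaction was -0.47 (SE 0.10), with phase changes of -0.12 on the CA day and 0.35 on the AA day. *CG10621* had the CA values 5.25, 4.88, 5.61, 4.75, 4.80 and 5.37 and the AA values 4.46, 4.60, 4.63, 5.40, 5.15 and 5.41 (interaction -1.03, SE 0.26, AA phase change 0.76). The 3 early AA arrays were its lowest. *Fnta*, a subunit of the farnesyltransferase that attaches lipid anchors to proteins, had its 3 early AA arrays at 5.13, 5.36 and 5.31 and all other arrays between 5.39 and 5.64 (interaction -0.44, SE 0.12).

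*Sply* encodes sphingosine-1-phosphate lyase, which ends sphingolipid breakdown. Its CA values were 6.66, 6.70, 6.81, 6.52, 6.47 and 6.66 and its AA values 6.45, 6.40, 6.50, 6.68, 6.66 and 6.62, so CA arrays were higher by 0.27 on average early and lower by 0.10 late, hour 22 excepted (interaction -0.37, SE 0.11). The odorant-binding protein gene *Obp99b* had the CA values 7.23, 7.26, 7.52, 6.88, 6.68 and 6.91 and the AA values 6.76, 6.81, 6.92, 7.31, 6.72 and 7.05. Its phase change was -0.51 on the CA day and 0.20 on the AA day (interaction -0.71, SE 0.19). *Obp56a*, the other odorant-binding gene of the 12, had CA values of 6.09, 6.03, 6.13, 5.59, 5.22 and 6.02 and AA values of 5.63, 6.11, 5.84, 6.38, 5.92 and 6.31. The early arrays of the 2 days overlapped, and late in the day each CA array lay below its AA partner (interaction -0.82, SE 0.26). The 5 arrays with the small *eIF-4a* difference were its lowest 5.

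Some of these differences were not shared by all probe sets of a gene. *sick* had an interaction of -0.41 (SE 0.12) in the probe set that put it among the 12, but 0.36 (SE 0.18), 0.13, -0.02 and -0.03 in its other 4. *MFS14*, a transporter of the major facilitator family, had -0.49 (SE 0.16) in 1 probe set and 0.02 (SE 0.15) in the other. The nuclear cyclophilin gene *cyp33* and *CG17032*, each with 1 probe set tested under its symbol, had interactions of -0.41 (SE 0.13) and -0.36 (SE 0.12).

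The 2 days contributed about alike to the probe sets at an unadjusted p under 0.05. Of the 207 positive ones, 197 (95.2%) had phase changes of opposite sign on the 2 days, with medians of 0.20 on the CA day and -0.27 on the AA day, and the AA part was the larger in 124. Of the 148 negative ones, 140 (94.6%) had opposite signs, with medians of -0.19 and 0.17, and the CA part was the larger in 81. Over all probe sets opposite signs were seen in 48.6%. Split by hours instead of days, the early part, in which 18 °C was set against 25 °C, was the larger in 159 of the 207 positive and 86 of the 148 negative probe sets, against 58.5% of all. The median early difference was -0.30 in the positive set and the median late difference, with both days at 25 °C, was 0.17. In the negative set they were 0.19 and -0.16. These shares are a description, since the interaction is the sum of its parts.

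**Figure D2:**
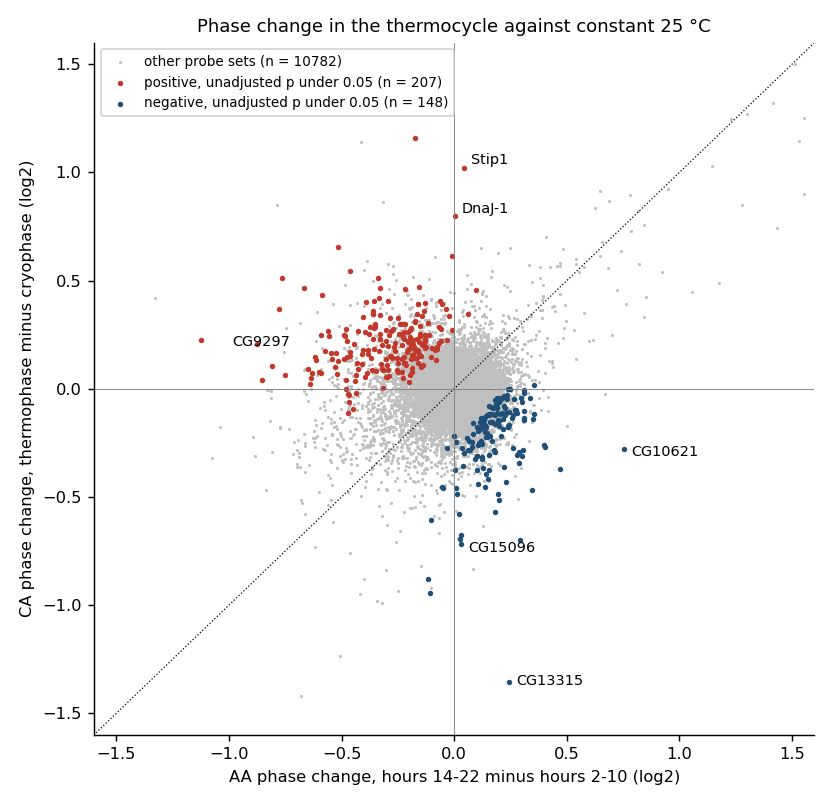
CA phase change (thermophase minus cryophase, log2) against AA phase change (hours 14 to 22 minus hours 2 to 10, log2) for the 11137 probe sets, with the 207 positive and the 148 negative ones at an unadjusted p under 0.05 in colour and 8 probe sets outside the axes. *Stip1* and *DnaJ-1* lie at the vertical line of no AA change, and most coloured points lie in the quadrants of opposite change.

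The largest interactions in size were mostly not those with the smallest p. Of the 19 over 1 in size, 14 were positive and 5 negative. Those that no rule had named (*Zasp52* in this probe set, *Drat*, *Gbs-70E*, *CG43897*, *CG4577*, *Lk6*, *scaf* and *Cyp4g1*) are given for their size, after their values were seen. The elongation factor gene *eEF1alpha2* had an interaction of 1.55 (SE 0.84), with CA values of 5.75, 6.16, 6.16, 7.60, 7.88 and 6.01 and AA values of 7.97, 6.11, 7.89, 6.81, 7.97 and 5.96. Its high values were not those of a phase: they were CA14, CA18, AA2, AA10 and AA18, the 5 arrays with the small *eIF-4a* difference (7.60 to 7.97, against 5.75 to 6.81 in the other 7). *Ggamma30A*, which encodes the gamma subunit of the G protein of the eye, lay between 7.27 and 7.51 in those 5 arrays and between 6.01 and 6.23 in the other 7 (interaction 1.18, SE 0.63). The synaptic vesicle gene *nSyb* lay between 6.57 and 6.96 in the 5 and between 5.44 and 6.53 in the 7 (interaction 1.28, SE 0.51).

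Such a split between the 5 and the 7 arrays, with no overlap and the 5 above, was seen in 57 of the 207 positive probe sets (27.5%), in 9 of the 14 largest positive ones (64.3%) and in 4.01% of all probe sets. The reverse, the 5 below, was seen in 12 of the 148 negative ones (8.11%) and in 1.67% of all. These shares are partly set by the contrast. The places of the 5 arrays in the groups make such a split favour a positive interaction, and the reverse a negative one. With the *eIF-4a* difference as a covariate the interaction of *eEF1alpha2* was 0.20 (SE 0.26), of *Ggamma30A* 0.18 (SE 0.23) and of *nSyb* 0.50 (SE 0.23). The median of the 207 positive probe sets went from 0.47 to 0.29 with this covariate, with 62 of them at a p under 0.05 in the same direction. The median of the 148 negative ones went from -0.36 to -0.31, with 71 at a p under 0.05. What the *eIF-4a* difference stands for in these samples was not tested.

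The genes with the smallest p moved less, which is partly set by how they were chosen. In every group but the CA cryophase, arrays with the small *eIF-4a* difference stand beside arrays with the large one. A gene that follows this difference therefore varies within groups, which raises its standard error and its p. The smaller move of the chosen genes is thus no test of whether they are free of it. *Stip1* had an interaction of 1.03 (SE 0.20) with the covariate, *DnaJ-1* 0.63 (SE 0.17), *CG9297* 0.64 (SE 0.18) and *CG13315* -1.18 (SE 0.29). Among the 24 genes with the smallest p the value moved by over 1.5 times only for *Obp56a*, to -0.44 (SE 0.15). Other probe sets with interactions over 1 were *Zasp52*, a Z-disc protein of muscle, at 1.35 (SE 0.49; 0.82 with the covariate), *Drat* at 1.17 (0.52), *Gbs-70E*, a glycogen-binding subunit of protein phosphatase 1, at 1.15 (0.48), *CG43897* at 1.13 (0.56), *CG4577* at 1.03 (0.31), *Lk6*, a kinase of the cap-binding protein eIF4E, at 1.02 (0.63), and *scaf* at 1.01 (0.47). The other probe sets of *CG43897*, *Lk6* and *scaf* gave -0.11, 0.19 and 0.28. A further 3 probe sets with no gene symbol had interactions of 1.75, 1.64 and 1.33. *Cyp4g1*, a cytochrome P450 of the oenocytes, stood at -1.08 with an SE of 1.96 and ranged from 4.54 to 10.5 over the arrays. Its highest CA arrays were CA2, CA14 and CA22, the 3 with a body score above 0 on that day. On the AA day AA14, AA18 and AA22, with body scores above 0, stood at 8.38, 8.03 and 9.42. AA6, with a body score of -0.08, stood at 8.14. With the *eIF-4a* covariate the interaction of *Cyp4g1* was 1.23 (SE 1.53).

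**Figure D3:**
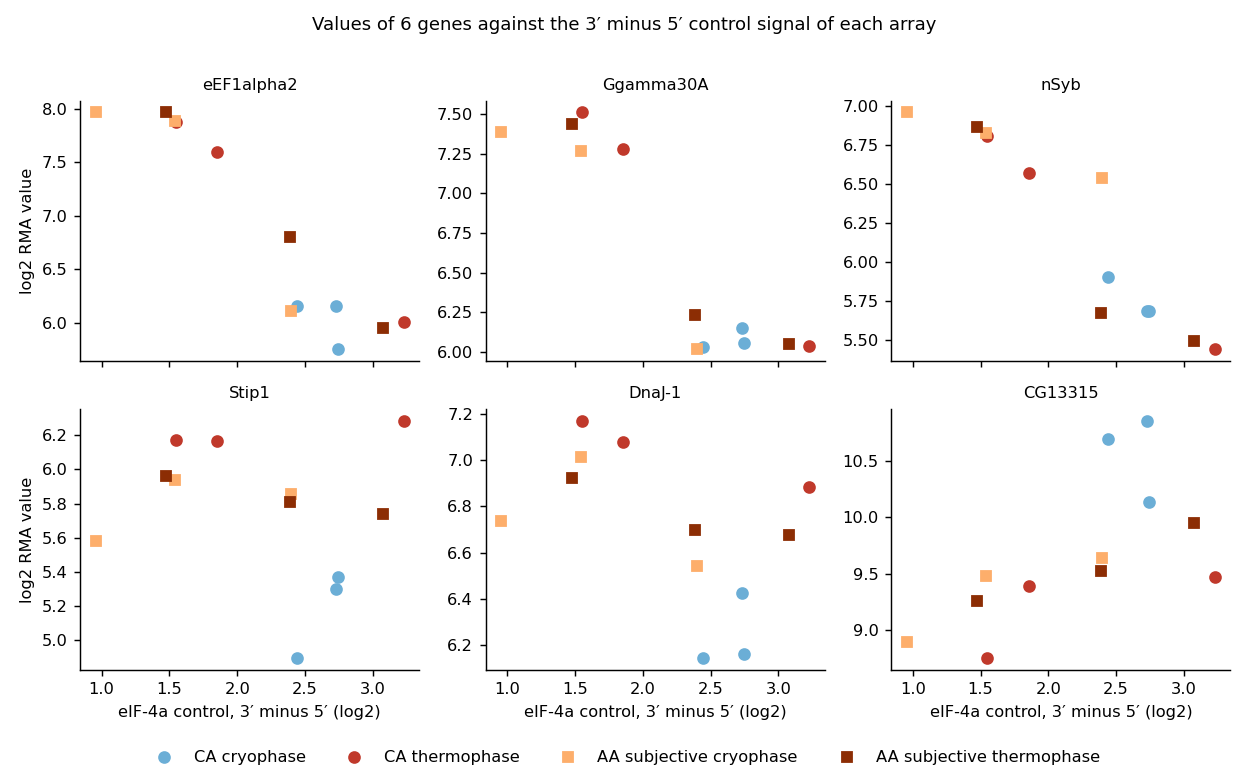
Log2 RMA values of 6 genes on each of the 12 arrays against the 3′ minus 5′ difference of the *eIF-4a* control (log2), coloured by group. *eEF1alpha2*, *Ggamma30A* and *nSyb* are high in the 5 arrays with a difference under 2 whatever their group, whereas *Stip1* and *DnaJ-1* are lowest, and *CG13315* highest, in the 3 CA cryophase arrays.

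Protein folding genes were taken by class. Chaperones bind unfolded proteins: Hsp70 with its Hsp40 partners acts early, Hsp90 acts on near-native clients, the chaperonins enclose a protein in a ring, and small heat shock proteins hold aggregates in check. Over all probe sets 47.9% of the interactions were positive, with a median of -0.01, and 1.86% and 1.33% were at an unadjusted p under 0.05 in each direction, which is the measure for the lists that follow. All 5 Hsp70 genes measured had a positive interaction (median 0.29), 1 of them at an unadjusted p under 0.05, the endoplasmic reticulum member *Hsc70-3* (0.29, SE 0.11). This probe set is marked as one that related genes can share, and with the covariate it was at 0.23 (SE 0.12), with p over 0.05. A second probe set gave 0.18 (SE 0.24), or 0.51 (SE 0.16) with the covariate. *Hsc70-5* went from 0.44 (SE 0.26) to 0.69 (SE 0.24) with the covariate, where it was at p under 0.05. *Hsc70-4*, the abundant constitutive Hsp70, had CA values of 9.77, 10.22, 9.95, 10.03, 10.01 and 9.72 and AA values of 9.38, 10.03, 9.81, 8.41, 9.68 and 9.38. AA14 was its lowest array, and its interaction of 0.52 (SE 0.38) was 0.15 without that array. Of 14 Hsp40 and nucleotide exchange genes 9 were positive (median 0.17), 1 at p under 0.05, which was *DnaJ-1*. The co-chaperone *stv* followed at 0.50 (SE 0.24), though a second probe set gave -0.03 (SE 0.22) and the *eIF-4a* covariate took the first to 0.17 (SE 0.15).

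Among Hsp90 and its co-chaperones *Stip1* was the 1 at p under 0.05. Of the 8, 5 were positive with a median of 0.01, and the next in p, *unc-45*, was at 0.18 (SE 0.13). *CG1416* of this list went from 0.38 (SE 0.39) to 0.96 (SE 0.18) with the covariate, where it was at p under 0.05. Of 18 chaperonin genes 13 were positive (median 0.03), with 3 at p under 0.05. These were *CCT5* (0.42, SE 0.16) and *CCT8* (0.28, SE 0.13), subunits of the cytosolic ring, and *Hsp60A* (0.70, SE 0.30), the mitochondrial chaperonin. With the covariate *CCT5* was at 0.30 (SE 0.16), *CCT8* at 0.20 (SE 0.13) and *Hsp60A* at 0.25 (SE 0.15), none at p under 0.05. *CCT5* had CA values of 5.18, 5.13, 5.30, 5.45, 5.52 and 5.56 and AA values of 5.75, 5.27, 5.50, 5.43, 5.48 and 5.26, so the cold arrays held 2 of its 3 lowest values and AA2 its highest. The ring subunit *CCT2* gave 0.33 (SE 0.16) and 0.63 (SE 0.25) in its 2 probe sets. With the covariate the first was at 0.40 (SE 0.17), at p under 0.05, and the second at 0.26 (SE 0.13). The median of the chaperonin list was 0.20 with the covariate. The 6 small heat shock genes went the other way in 5 cases (median -0.16), with none at p under 0.05: *Hsp27* stood at -0.13 (SE 0.11) and the 1 positive member, *Hsp26*, named after its value was seen, at 0.15 (SE 0.16). With the covariate the median of the small heat shock list was 0.00. Of 20 endoplasmic reticulum folding genes 13 were positive (median 0.04), with *Hsc70-3* and the translocon gene *Sec61beta* (0.65, SE 0.26) positive and *Sec63* (-0.26, SE 0.11) negative at p under 0.05. With the covariate *Hsc70-3* was at 0.23 and *Sec61beta* at 0.35, both with p over 0.05. Genes of the stress and cold response, such as *Fst* (*Frost*, -0.25, SE 0.24), were negative in 8 of 9 cases with 0 at p under 0.05, and the median of -0.08 was 0.03 with the covariate.

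The RNA-binding proteins of splicing were taken by class as well, and differences between the classes were not tested. The hnRNP proteins coat nascent transcripts, and 11 of 13 were positive (median 0.30), 3 of them at p under 0.05: *Hrb98DE* (0.55, SE 0.20), *hfp* (0.61, SE 0.24) and *mub* (0.43, SE 0.16). With the covariate *Hrb98DE* was at 0.41 (SE 0.20), *hfp* at 0.40 (SE 0.23) and *mub* at 0.27 (SE 0.15), none at p under 0.05. *Hrb98DE* had CA values of 5.23, 5.52, 5.51, 5.52, 5.89 and 5.65 and AA values of 5.75, 5.55, 6.02, 5.34, 5.67 and 5.46. CA2 was its lowest array and AA10 its highest. All 9 SR proteins and their kinases were positive (median 0.23), yet 0 reached a p under 0.05, *tra2* having the smallest p (0.28, SE 0.18). The median hour-matched difference of the hnRNP list was 0.41 at hour 14 and between -0.03 and 0.12 at the other hours, and that of the SR list was 0.34 at hour 14 and between -0.13 and 0.09 at the others. Without hours 2 and 14 the medians were 0.13 for the hnRNP and 0.01 for the SR list, and with the covariate they were 0.24 and 0.10. The core spliceosome was mixed, with 12 of 23 positive and a median of 0.00; *Sf3b3* (0.41, SE 0.15) and *SmD1* (0.43, SE 0.20, but 0.22 and p over 0.05 with the covariate) were positive and *cyp33* negative at p under 0.05. Of 21 nucleolar genes 13 were positive (median 0.06), and *Non1* (-0.28, SE 0.12; second probe set -0.02) was the 1 at p under 0.05.

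Muscle contraction genes held the most members at p under 0.05: 6 of 19, all positive, in a list with 15 positive members and a median of 0.11. Besides *SERCA* they included the myosin light chain gene *Mlc2* (0.61, SE 0.21; 0.38 with the covariate), the actin gene *Act79B* (0.34, SE 0.12), paramyosin (*Prm*, 0.91, SE 0.34), *Zasp52* (0.74, SE 0.28, in the probe set used for the list) and, outside the rule for named genes, *Mlp84B* (0.52, SE 0.21), which encodes a Z-disc LIM protein. *Act79B* had CA values of 6.82, 6.92, 6.84, 7.14, 6.90 and 7.01 and AA values of 6.77, 6.66, 6.88, 6.55, 6.55 and 6.65. Its late AA arrays were the 3 lowest. Its probe set is marked as one that related actin genes can share. *Prm* had CA values of 7.23, 7.58, 7.41, 7.80, 7.72 and 7.01 and AA values of 7.97, 7.92, 7.80, 6.81, 7.68 and 6.77, and its interaction was 0.48 (SE 0.24) with the *eIF-4a* covariate, no longer at p under 0.05. The list median difference between the days was between -0.04 and 0.07 at the early hours and between 0.13 and 0.28 at the late hours, when both days were at 25 °C.

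**Figure D4:**
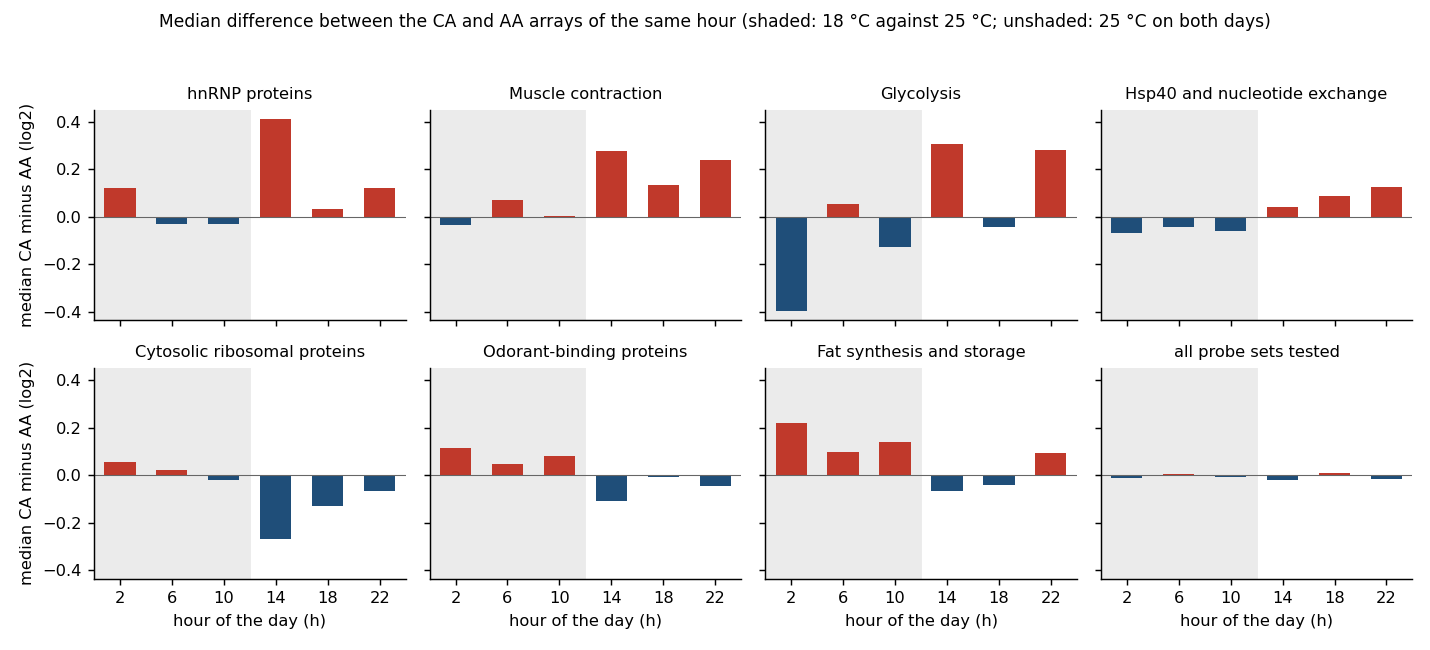
Median over the genes of a list of the difference between the CA and the AA array of the same hour (log2), for 7 lists and for all probe sets; shaded hours set 18 °C against 25 °C, the others 25 °C against 25 °C. The muscle list stands above 0 at all 3 late hours, the cytosolic ribosomal list below 0 at all 3, and the fat list above 0 at all 3 early hours.

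Glycolysis, which splits glucose for energy, had 7 of 11 genes positive and a median of 0.30, with 0 at p under 0.05. *Pfk*, the control step of the pathway, had CA values of 7.07, 7.30, 7.29, 7.55, 7.41 and 6.83 and AA values of 7.83, 7.40, 7.57, 6.99, 7.42 and 6.93 (interaction 0.53, SE 0.26). Its 5 arrays with the small *eIF-4a* difference lay between 7.41 and 7.83 and the other 7 between 6.83 and 7.40. *Pgk* stood at 0.98 (SE 0.57), and at 0.07 (SE 0.20) with the covariate, while the list median went from 0.30 to 0.04. Glycogen, trehalose and pentose phosphate genes were negative in 13 of 19 cases (median -0.14), with the maltase gene *Mal-A7* (-0.34, SE 0.13) at p under 0.05. With the covariate *Mal-A7* was at -0.24 (SE 0.13), with p over 0.05. Of 63 genes of the respiratory chain and ATP synthase 20 were positive (median -0.12), with 0 at p under 0.05; with the covariate the median was 0.02.

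Genes of protein synthesis were mostly negative. Of 37 cytosolic ribosomal protein genes 26 were negative (median -0.22), 3 of them at p under 0.05. These were *RpL24-like* (-0.46, SE 0.17), which assembles the large subunit, *RpL22-like* (-0.25, SE 0.11), a paralogue, and *RpS12* (-0.59, SE 0.27). With the covariate *RpL24-like* was at -0.37 (SE 0.18) and *RpS12* at -0.24 (SE 0.18), both with p over 0.05. *RpL22-like* was near the low end of the filter, with the 12 values between 2.91 and 3.235. *RpL24-like* had CA values of 6.21, 6.52, 6.38, 6.06, 6.02 and 6.18 and AA values of 6.13, 6.30, 6.55, 6.64, 6.36 and 6.52, and its 3 late CA arrays were among the 4 lowest. The median difference between the days was -0.27, -0.13 and -0.06 at hours 14, 18 and 22 and between -0.02 and 0.05 at the early hours. With the *eIF-4a* covariate the list median was -0.09. Of 65 mitochondrial ribosomal protein genes 49 were negative (median -0.13), with *mRpL42*, *mRpL46* and *mRpL30* (-0.33 to -0.36) at p under 0.05, and without hours 2 and 14 the median was 0.03. With the covariate *mRpL42* and *mRpL30* were each at -0.22 and *mRpL46* at -0.30, all with p over 0.05. Translation factors were mixed, with 17 of 38 positive and a median of -0.07. The 1 at p under 0.05 was *eIF4A* (0.79, SE 0.34), the gene that the *eIF-4a* control probe sets themselves measure. Its array values followed the control split (11.33 to 11.63 in the 5 arrays, 10.60 to 10.97 in the 7). This split and its value of 0.26 (SE 0.13) with the covariate are therefore not independent of that control. Proteasome genes, which make up the protein-degrading particle, were positive in 12 of 34 cases (median -0.05) with 0 at p under 0.05.

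Triglyceride is the fat store of the fly. The fat synthesis and storage list had 16 of 23 genes negative (median -0.14) and 3 at p under 0.05. *mdy*, the acyltransferase that makes triglyceride, had CA values of 5.61, 6.54, 6.55, 5.44, 5.11 and 5.33 and AA values of 5.32, 5.85, 5.75, 5.82, 5.17 and 5.61, with CA6 and CA10 the highest of the 12 (interaction -0.84, SE 0.34). *ACC*, acetyl-CoA carboxylase, the first step of fatty acid synthesis, had CA values of 7.66, 7.82, 7.998, 7.62, 7.19 and 7.36 and AA values of 7.05, 7.20, 7.59, 7.65, 7.28 and 7.23 (interaction -0.54, SE 0.23). Its 3 cold arrays were the highest of all, though a second probe set gave 0.08 (SE 0.12). The triglyceride lipase *bmm* (*brummer*), which releases stored fat, stood at -0.38 (SE 0.16). With the *eIF-4a* covariate *mdy* was at -0.63 (SE 0.35), *ACC* at -0.52 (SE 0.25) and *bmm* at -0.26 (SE 0.15), none at p under 0.05. The list median difference was 0.22, 0.10 and 0.14 at the 3 cold hours and -0.07, -0.04 and 0.10 at the later ones.

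Of 28 immune signalling genes 20 were negative (median -0.10), with the protease *psh* (*persephone*), an activator of the Toll pathway, at -0.38 (SE 0.14) and the peptidoglycan amidase *PGRP-SB1* at -0.67 (SE 0.30) at p under 0.05. With the covariate *PGRP-SB1* was at -0.38 (SE 0.26), with p over 0.05. *psh* had CA values of 6.69, 6.73, 6.89, 6.51, 6.30 and 6.37 and AA values of 6.49, 6.32, 6.52, 6.49, 6.29 and 6.56, and its 3 cold arrays were the highest. *Rel*, the NF-kappaB factor of the Imd pathway, stood at -0.58 (SE 0.28) with an AA phase change of 0.01, and at -0.28 (SE 0.23) with the covariate. The antimicrobial peptide genes were higher late in the day on both days in the median (0.18 on the CA day, 0.30 on the AA day), and 7 of 10 interactions were negative with 0 at p under 0.05. *Mtk* (*Metchnikowin*) had CA values of 8.87, 8.50, 8.64, 8.80, 8.58 and 9.96 and AA values of 8.06, 8.75, 8.41, 9.45, 9.71 and 9.23 (interaction -0.61, SE 0.42, and -0.20 with the covariate), so all 3 late AA arrays but only CA22 on the CA day were above 9.

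Odorant-binding proteins, which carry odorants to the receptors, were negative in 21 of 26 cases (median -0.16) with *Obp99b* and *Obp56a* at p under 0.05, whereas the 70 chemoreceptor genes measured had a median of -0.04 and 0 at p under 0.05, *Ir93a* having the smallest p (-0.24, SE 0.14). Only 70 of 126 chemoreceptor genes on the array passed the filter. Of 69 cytochrome P450 genes 50 were negative (median -0.08), with *Cyp6a8* (-0.60, SE 0.24) negative and *Cyp4d1* (0.41, SE 0.17) positive at p under 0.05. With the covariate *Cyp6a8* was at -0.38 and *Cyp4d1* at 0.29, both with p over 0.05. Of 53 glutathione and UDP-glycosyl transferases 42 were negative (median -0.10), with *GstE7* (-0.425) at p under 0.05. With the covariate *GstE7* was at -0.35 (SE 0.20), with p over 0.05. The 90 cuticle protein genes had a median of -0.03 and 1 member at p under 0.05, *Cpr78E* (-0.35, SE 0.15). *Cpr72Ec* had phase changes of -1.42 on the CA day and -0.68 on the AA day, and its interaction of -0.74 (SE 0.42) was -0.25 (SE 0.33) with the covariate.

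**Figure D5:**
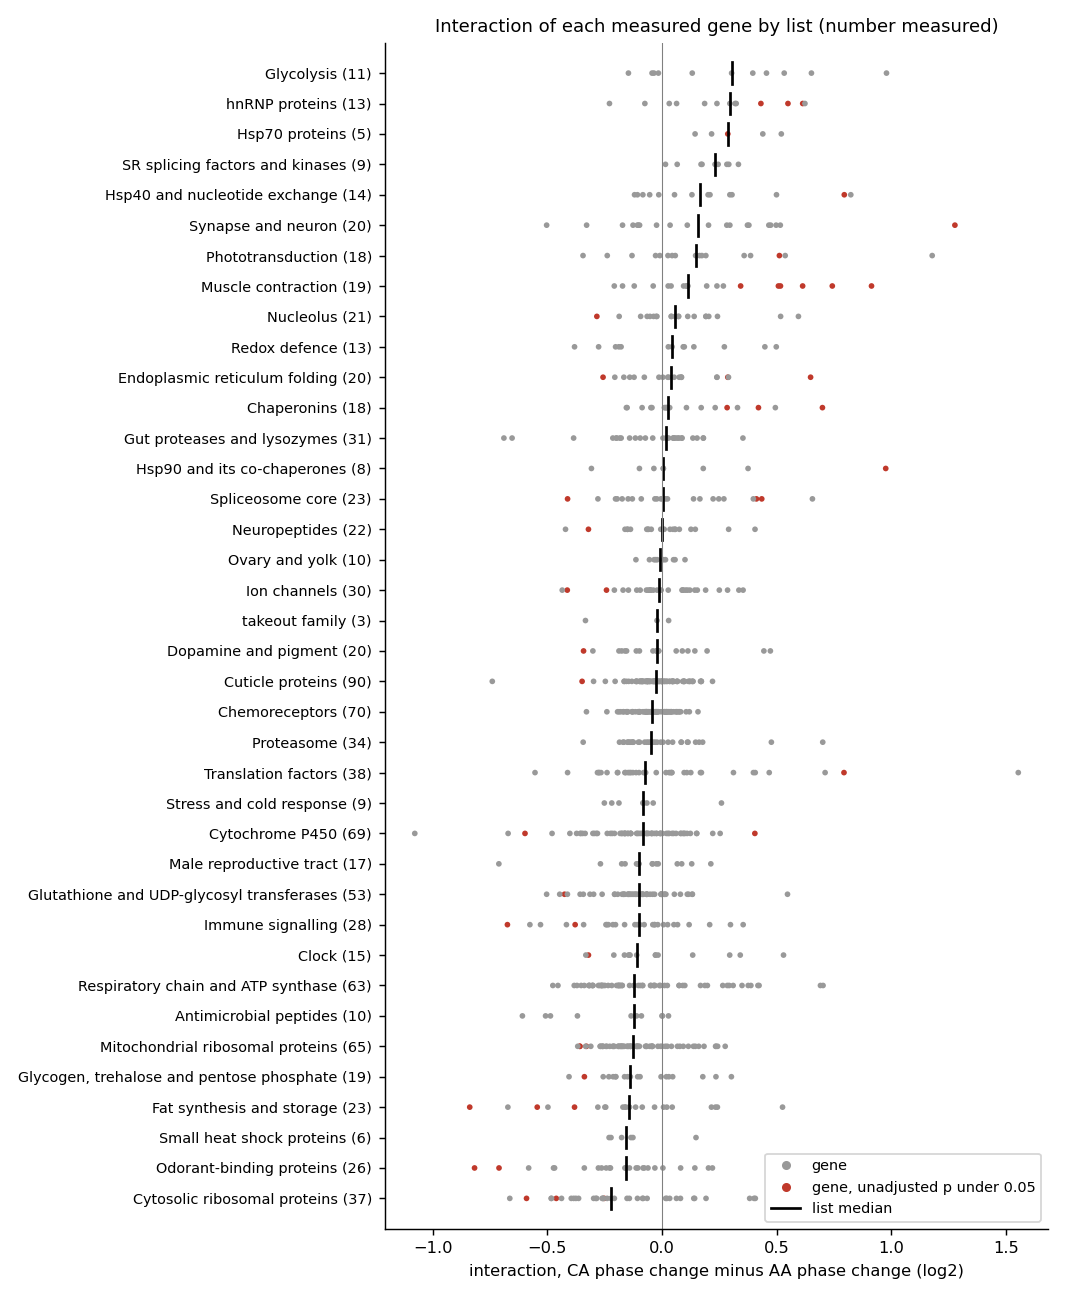
Interaction (log2) of each measured gene in the 38 lists, ordered by the list median (vertical bar), with genes at an unadjusted p under 0.05 in colour and the number of genes measured in brackets. Glycolysis and the hnRNP list have medians of 0.30, the cytosolic ribosomal list -0.22, and all 5 Hsp70 and all 9 SR genes lie above 0.

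The clock itself showed no interaction that passed the test. *tim* (*timeless*), whose protein pairs with PER to shut down CLK and CYC, had CA values of 6.57, 6.07, 5.90, 6.52, 6.91 and 7.05 and AA values of 6.32, 6.24, 6.64, 6.58, 6.59 and 6.39 in the probe set with the smaller p. The range over the day was wide on the CA day, with a low at hour 10 and a high at hour 22, and narrow on the AA day. Its interaction was 0.53 (SE 0.25). A second probe set of *tim* gave 0.69 (SE 0.46), and 0.01 (SE 0.23) with the *eIF-4a* covariate. *per* (*period*) had CA values of 5.86, 6.39, 6.04, 6.22, 6.005 and 5.42 and AA values of 5.81, 5.75, 5.71, 5.71, 5.86 and 5.48, and CA6 was its highest array. Its interaction was -0.14 (SE 0.26), with the CA arrays above the AA arrays by 0.34 early and 0.20 late, and it was -0.44 (SE 0.21) with the covariate.

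*vri* (*vrille*), a repressor of *Clk*, had CA values of 6.88, 6.76, 7.28, 7.51, 7.28 and 7.28 and AA values of 6.94, 6.81, 7.17, 7.14, 7.04 and 7.01. The early hours were alike on the 2 days and the CA day was higher by 0.29 late (interaction 0.30, SE 0.19). *Clk* (*Clock*), the activator of *per* and *tim*, had CA values of 4.63, 5.04, 5.40, 4.33, 4.10 and 4.75 and AA values of 4.31, 4.77, 4.78, 3.93, 4.08 and 4.96. It was low at hours 14 and 18 on both days, and its interaction was -0.33 (SE 0.38), or 0.095 (SE 0.31) with the covariate. The interactions of *cry*, *cyc*, *dco* and *Pdp1* were 0.13 (SE 0.20), -0.14 (SE 0.12), -0.03 (SE 0.20) and -0.02 (SE 0.16), and those of the 2 probe sets of *cwo* -0.09 (SE 0.17) and -0.16 (SE 0.23). With the covariate *cry*, *dco* and *Pdp1* changed sign, and the first probe set of *cwo* was at -0.27 (SE 0.14).

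Of the 15 clock list genes 11 were negative (median -0.11, and 0.03 with the covariate), and the 1 at p under 0.05 was *Pdf*, the neuropeptide by which the ventral lateral clock neurons signal. *Pdf* had CA values of 6.61, 6.58, 6.64, 6.43, 6.32 and 6.51 and AA values of 6.39, 6.49, 6.45, 6.67, 6.46 and 6.60 (interaction -0.32, SE 0.11). CA arrays were above their AA partners at all 3 early hours and below them at all 3 late ones. The mean difference was 0.16 early and -0.16 late, and the 5 arrays with the small *eIF-4a* difference, at 6.32 to 6.46, lay below the other 7. With the covariate the interaction of *Pdf* was -0.22 (SE 0.11), with p over 0.05. The 22 neuropeptide genes had a median of 0.00 with *Pdf* the 1 at p under 0.05.

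Phototransduction genes, which turn light into a receptor current, were positive in 13 of 18 cases (median 0.15). *rdgC*, the phosphatase that resets rhodopsin, was the 1 at p under 0.05, with CA values of 4.29, 4.53, 4.51, 4.84, 4.61 and 4.31 and AA values of 4.72, 4.67, 4.50, 4.07, 4.22 and 4.50 (interaction 0.51, SE 0.20). With the covariate it was at 0.45 (SE 0.22), with p over 0.05. The synapse and neuron list was positive in 12 of 20 cases (median 0.16) with *nSyb* at p under 0.05, but not with the covariate (0.50, SE 0.23). Of 30 ion channel genes 14 were positive (median -0.01), and *sei* (*seizure*), a potassium channel gene of the ERG type (-0.41, SE 0.19, but -0.17 and p over 0.05 with the covariate), and the acetylcholine receptor subunit *nAChRalpha7* (-0.24, SE 0.11) were at p under 0.05. Among 20 genes of dopamine and eye pigment the pigment transporter *st* (*scarlet*) stood at -0.34 (SE 0.14), but at -0.27 with p over 0.05 with the covariate. Among 13 redox genes and 3 genes of the *takeout* family 0 reached a p under 0.05. The gut protease, male reproductive and ovary lists had medians of 0.02, -0.10 and -0.01 with 0 of 31, 17 and 10 genes at p under 0.05.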

How the data were processed

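The data were 12 Affymetrix DrosGenome1 expression arrays of *y w* heads, 1 pooled sample each. The deposited log2 expression values had been made by the authors with RMA, a method that corrects background, normalizes by quantiles and summarizes the probes of a probe set, and the version is not given in the sources used here. No source states the base of the logarithm. It was taken as 2, which RMA uses and the range of the values allows. No scanner intensities were used, so RMA's own settings could not be varied. Array signal has no count depth, and the number of arrays limits the precision.

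Of 13966 probe sets other than the 44 controls, those with more than 6 of 12 values above the 20th percentile (2.93) were kept. Group means (3 arrays each) and the interaction were fitted with limma 3.58.1 (lmFit and eBayes, R 4.3.3), two-sided, with Benjamini-Hochberg adjustment over 11137 probe sets and a threshold of 0.05. The residual degrees of freedom were 8 and the prior degrees of freedom 4.24. Symbols came from the platform annotation and were updated through gene identifiers where these matched (12394 probe sets). Of the 13966 probe sets 12443 had 1 symbol, 327 several and 1196 none, and none was named from a probe set with several. Named genes came only from probe sets with 1 symbol. They were the 12 with the smallest p in each direction, 9 clock genes and up to 4 per list with the smallest p. The other measured probe sets of these genes were given too. The 38 lists and the members were chosen with earlier results of these data known. Each list took 1 probe set per gene. All columns of the value table were mapped to a sample by name, and the fit was tested on simulated data.

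Alternatives were no filter and a stricter filter, quantile normalization, centring on the median, a variance trend, array weights, the hour of day as a block, leaving out hours 2 and 14, the *eIF-4a* control difference or the mean of the gut and male marker scores as a covariate, and leaving out each array. Figures were drawn with matplotlib 3.10.9.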

Additional observations from a re-analysis of the deposited data

How the results depend on the processing

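The count of probe sets at an adjusted limma p under 0.05 was 0 in all alternatives but the replicate block by hour of day, where it was 1. That gene was *CG13315* (-1.60, SE 0.14, adjusted p 0.00615), and 2 probe sets had an adjusted p under 0.2. The arrays of an hour went together at some hours and not at others. The correlation of the deviations of the CA and the AA array of an hour was 0.306, 0.003, 0.484, -0.128, 0.608 and 0.593 at hours 2 to 22. Which fit suits these arrays better was not tested. At an unadjusted p under 0.05 the block gave 1051 probe sets against 355 without it, array weights 1610 and the fit without hours 2 and 14 172. The other alternatives that kept all arrays gave between 339 and 464. Leaving out 1 array gave 213 (CA14) to 1034 (AA18), with 825 without CA22, 580 without AA6, 215 without CA18, 216 without AA14 and 218 without AA22. Of the 207 positive and 148 negative probe sets, 22 and 47 stayed at a p under 0.05 without hours 2 and 14, and 198 and 136 with the block. Array weights gave CA14 a weight of 6.12, and at an adjusted p under 0.2 they gave 180 probe sets. Quantile normalization and centring turned the sign of 0 of 176 named probe sets.

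Some values changed sign, among them *Anp* (-0.51 over all arrays with no covariate), *Trxr1* (0.498), *PIP82* (0.36), *Doa* (0.33), *Clk* (-0.33) and *p23* (-0.31), and the cause was not tested. Array weights turned *per* (0.064), *Pdp1* (0.11), *dco* (0.14), *smp-30* (0.034) and *CG31189* (-0.049). The *eIF-4a* covariate turned *Clk* (0.095), *cry* (-0.055), *Pdp1* (0.090), *dco* (0.030), *p23* (0.039), *CG4461* (0.043), *CG7409* (0.088), *crc* (0.098), *CG7079* (0.17), *Anp* (0.23), *Trxr1* (-0.0054), *Mst98Cb* (0.0051) and *Mst84Da* (0.21). Without hours 2 and 14, *cwo* (0.006), *p23* (0.016), *Doa* (-0.007), *Rsf1* (-0.015), *CG7079* (0.125), *PIP82* (-0.014), *Anp* (0.14), *Mst85C* (0.0705) and *Vm26Aa* (-0.11) turned. With 1 array left out, the ranges that crossed 0 were -0.231 to 0.0375 and -0.308 to 0.06 for the 2 probe sets of *cwo*, -0.309 to 0.0905 for *per*, -0.0972 to 0.0973 for *Pdp1*, -0.156 to 0.108 for *dco*, -0.0653 to 0.0922 for *CG31189*, -0.198 to 0.129 for *CG7079*, -0.281 to 0.0065 for *Mst98Cb*, -0.5 to 0.021 for *Mst84Da*, -0.216 to 0.000667 for *Cp36* and -0.0153 to 0.1 for *Vm26Aa*. *Stip1* ranged from 0.83 to 1.08 and *CG13315* from -1.81 to -1.37.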
